A study of Mus musculus with 45 samples.

Results

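Polycomb repressive complex 2 (PRC2) was followed through 10 genes, Ezh2, Ezh1, Eed, Suz12, Rbbp4, Rbbp7, Phf1, Mtf2, Phf19 and Jarid2, picked by symbol from the 55450 genes of the count table and compared over 8 groups of sorted lymph node cells. All 10 symbols occurred once in the table, and all 10 passed the filter on low counts in every comparison. The 45 libraries came from S1PR4-/- mice and their WT littermates (strain label B6.129P2-S1pr4tm1Dgen/J, backcrossed at least 10 times to C57/BL6, both sexes, 8 to 12 weeks of age), all immunized in the footpad with 20 µl of an IFA emulsion holding 50 µg OVA and 5 µg LPS. From the draining popliteal lymph node, TFH cells (TCRβ+CD4+PD1+CXCR5+) and non-TFH cells (PD1-CXCR5- CD4+ T cells) were sorted on Day 6, and GC B cells (B220+GL7+Fas+) and non-GC B cells (GL7-Fas-) on Day 9. There were 6 libraries in each group but for the non-GC B cells, of which WT mice gave 5 and S1PR4-/- mice 4. S1PR4 is a G protein-coupled receptor for sphingosine 1-phosphate, and the allele is lost in every cell of the animal, so the sorted cells matured in an S1PR4-/- environment. Lineage and day of sorting changed together, so that B cells and T cells cannot be told apart from Day 9 and Day 6. The methods give 6 immunized mice of each genotype, as many as the libraries of a full group, but no label ties a library to a mouse, so the p-values measure the spread between these libraries.

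PRC2 places methyl groups on lysine 27 of histone H3, a mark of silenced genes. EZH2 or its relative EZH1 carries the catalytic SET domain, EED and SUZ12 hold the core together and are needed for activity, and RBBP4 or RBBP7 binds histones. Accessory proteins sort the complex into forms: one Polycomb-like protein out of PHF1, MTF2 and PHF19 marks one form, and JARID2 with AEBP2 marks the other. EZH2 is typical of dividing cells, EZH1 of resting cells, and EZH2 is required in B cells for germinal centers.

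The promoters are shown for the 2 catalytic genes, for Phf1, which moved against its relatives, and for Suz12 and Phf19, which with Ezh2 were the members holding one of the E2F-type words searched, a class of motif bound by regulators of the cell cycle. Each stretch runs 5′ to 3′ on the gene's strand from 250 bases before to 50 bases after the RefSeq start site (GRCm38.p6, the build also called mm10), and capitals mark matches to the words searched.
Ezh2 (chr6:47594981-47595280, minus strand): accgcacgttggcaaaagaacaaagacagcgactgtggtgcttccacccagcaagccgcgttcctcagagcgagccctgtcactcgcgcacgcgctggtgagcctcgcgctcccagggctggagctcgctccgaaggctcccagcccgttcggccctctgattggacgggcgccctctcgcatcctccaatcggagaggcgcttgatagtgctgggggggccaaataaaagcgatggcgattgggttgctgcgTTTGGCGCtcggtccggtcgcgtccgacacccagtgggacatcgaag
Ezh1 (chr11:101226414-101226713, minus strand): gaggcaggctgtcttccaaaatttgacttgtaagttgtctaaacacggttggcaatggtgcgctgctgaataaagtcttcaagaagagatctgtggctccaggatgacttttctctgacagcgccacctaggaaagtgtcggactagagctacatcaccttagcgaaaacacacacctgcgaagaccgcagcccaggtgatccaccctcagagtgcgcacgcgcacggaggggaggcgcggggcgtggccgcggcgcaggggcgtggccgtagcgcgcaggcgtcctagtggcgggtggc
Suz12 (chr11:79992856-79993155, plus strand): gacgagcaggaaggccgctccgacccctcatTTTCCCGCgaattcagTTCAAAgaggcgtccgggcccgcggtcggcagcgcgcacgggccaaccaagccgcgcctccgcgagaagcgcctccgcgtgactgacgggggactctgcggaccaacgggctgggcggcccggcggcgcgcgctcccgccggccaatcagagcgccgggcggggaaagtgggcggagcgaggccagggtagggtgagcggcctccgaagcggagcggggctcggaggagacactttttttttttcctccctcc
Phf19 (chr2:34913927-34914226, minus strand): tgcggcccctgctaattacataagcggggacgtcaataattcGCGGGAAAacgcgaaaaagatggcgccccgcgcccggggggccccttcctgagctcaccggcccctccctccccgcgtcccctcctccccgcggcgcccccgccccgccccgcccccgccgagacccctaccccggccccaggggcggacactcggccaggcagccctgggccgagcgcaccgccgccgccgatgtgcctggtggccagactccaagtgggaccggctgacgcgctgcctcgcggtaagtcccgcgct
Phf1 (chr17:26932877-26933176, plus strand): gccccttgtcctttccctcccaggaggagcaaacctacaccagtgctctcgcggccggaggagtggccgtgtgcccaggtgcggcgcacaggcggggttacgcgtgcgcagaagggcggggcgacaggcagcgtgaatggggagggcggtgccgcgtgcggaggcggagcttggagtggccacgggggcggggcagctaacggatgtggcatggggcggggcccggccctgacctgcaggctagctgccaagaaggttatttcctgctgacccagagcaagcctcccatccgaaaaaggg
Words of 3 kinds were searched on both strands: the E2F-type words TTTCCCGC, TTTGGCGC, TTTCGCGC and TTTGCCGC, the word TTTGAA of the cell cycle homology region (CHR), and the E-box CACGTG. The 10 genes had 12 promoters in the RefSeq table, since Mtf2 and Jarid2 had 2 each. An E2F-type word lay in 3 of these 12 promoters, those of Ezh2, Suz12 and Phf19, and 2.26% of all 32851 promoters held one. These 3 promoters were richer in G and C (64.3% to 74.3%, with 31 to 41 CpG) than the median promoter (52.7%, with 7 CpG). Member promoters without such a word ran from 45.7% (a promoter of Mtf2, 2 CpG) to 75.7% (Rbbp7, 38 CpG). The part of base composition in the matches was not tested. In Ezh2 the E2F-type word began 3 bases after the start site, in Suz12 219 bases before it, and in Phf19 208 bases before it on the opposite strand. The CHR word lay in promoters of 3 genes, Eed, Suz12 and Mtf2 (17.9% of all promoters), and the E-box in that of Rbbp4 alone (7.15% of all). These are matches of letters, and no binding was measured.

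Sequencing gave 26299429 to 45548215 expected counts per library (median 34188292). S1pr4 counts ran from 0 to 40 in the S1PR4-/- libraries and from 505 to 6305 in the WT libraries, as the genotype labels have it. The sorted populations carried their defining transcripts: Fas, a death receptor used in the sort, averaged 118 CPM (counts scaled to the normalized library size) in WT GC B cells and 6.96 CPM in their non-GC B partners, and Pdcd1, which encodes PD1, averaged 660.3 CPM in WT TFH cells and 18.9 in non-TFH cells. Markers of other cells varied between libraries. In GC B cells, 8 plasma cell markers summed to 4043 to 8886 CPM (WT) and 2061 to 17946 CPM (S1PR4-/-), and in TFH cells, 12 B cell markers summed to 162 to 478 CPM (WT) and 160.5 to 293 CPM (S1PR4-/-). The sexes were unevenly spread over the genotypes in T cells: Xist, a transcript of female cells, was over 1 CPM in 5 of 6 WT libraries and 2 of 6 S1PR4-/- libraries, in TFH and non-TFH cells alike. In B cells it was over 1 CPM in 3 of 6 GC B libraries of each genotype, 3 of 5 WT non-GC B libraries and 2 of 4 S1PR4-/- ones.

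In WT mice all 10 PRC2 genes set GC B cells apart from non-GC B cells, 7 being higher and 3 lower in GC B cells. Of all 13324 genes tested there, 67.2% passed the same threshold (FDR under 0.05, edgeR's quasi-likelihood test), 34.3% as higher and 32.9% as lower. The CPM ranges of the 2 groups did not overlap for any of the 10, against 50.8% of all genes. The median log2 fold change was 0.86 over the members and 0.00 over all genes. Fewer cells with a transcript and less transcript per cell cannot be told apart in such sorted bulk samples.

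Ezh2 was measured at a lowest value of 110.3, a median of 145 and a highest value of 183 CPM in WT GC B cells, and at 25.1, 27.6, 23.7, 28.3 and 23.6 CPM in the 5 WT non-GC B libraries. The lowest GC B library lay well above the highest non-GC B library. The log2 fold change was 2.59 (SE 0.13, adjusted p = 6.98e-09), a 6.02-fold rise. Ezh1, its relative, ran the other way, with a lowest, median and highest value of 41.5, 53.0 and 81.5 CPM in GC B cells and 186, 168, 166, 178 and 155 CPM in non-GC B cells. Every GC B library was below every non-GC B library, and Ezh1 fell by 1.56 on the log2 scale (SE 0.14, adjusted p = 6.24e-07).

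Scaled for length over the union of exons (TPM), the more abundant catalytic transcript was a different one in the 2 populations. Ezh2 made up 14.4% ± 0.969 (SD, n = 5) of the sum of Ezh1 and Ezh2 in WT non-GC B cells and 74.4% ± 7.76 (SD, n = 6) in WT GC B cells. In each of the 6 WT GC B libraries Ezh2 exceeded Ezh1, by a ratio of 1.51 to 4.48, and in each of the 5 non-GC B libraries it was below Ezh1, at a ratio of 0.151 to 0.183. The WT GC B library with the lowest Ezh2 and the highest Ezh1, replicate 6, also had the lowest proliferation sum of its group (4647 CPM over 17 genes, against 5705 to 7557 in the others) and the highest sum of B cell markers (12480 CPM). Whether these go together was not tested.

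Of the core subunits, Eed averaged 193 ± 22.6 CPM (SD, n = 6) in GC B and 119 ± 10.8 CPM in non-GC B cells of WT mice (SD, n = 5), a rise of 0.76 on the log2 scale (SE 0.09, adjusted p = 9.43e-06). Suz12 averaged 170.3 ± 31 and 111 ± 11.3 CPM and rose by 0.68 (SE 0.13, adjusted p = 4.26e-04). The 2 histone-binding subunits moved with them. Rbbp4 was at 648 ± 56.6 CPM in GC B and 346 ± 9.49 CPM in non-GC B cells and rose by 0.97 (SE 0.07, adjusted p = 2.26e-07). Rbbp7 was at 598 ± 68.2 and 260.0 ± 25.7 CPM and rose by 1.27 (SE 0.10, adjusted p = 2.85e-07). RBBP4 and RBBP7 also belong to other chromatin complexes, and the log2 fold changes of the 4 subunits, 0.68 to 1.27, were below the 2.59 of Ezh2.

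The 3 Polycomb-like genes split. Phf19 was measured at 60.7, 95.7 and 108 CPM (lowest, median, highest) in WT GC B cells and at 4.14, 0.885, 2.94, 2.59 and 4.90 CPM in the 5 non-GC B libraries. The groups were far apart, with a log2 fold change of 4.92 (SE 0.35, adjusted p = 1.18e-07), a 30.3-fold rise and the largest change of the 10 genes in this comparison. Mtf2 was at 175, 221 and 253 CPM in GC B cells and between 82.8 and 96.9 CPM in non-GC B cells, and rose by 1.37 on the log2 scale (SE 0.09, adjusted p = 8.75e-08). Phf1 was at 7.55, 14.8 and 24.6 CPM in GC B cells against 98.0, 127, 110.1, 115 and 121 CPM in non-GC B cells. It fell by 2.86 (SE 0.22, adjusted p = 2.72e-07), so that no GC B library came near a non-GC B library.

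As shares of the length-scaled sum of the trio, Phf1 held 67.0% ± 2.37 in WT non-GC B cells (SD, n = 5) and 7.40% ± 3.67 in GC B cells (SD, n = 6). Mtf2 held 31.7% ± 2.22 and 63.3% ± 1.72, and Phf19 1.28% ± 0.662 and 29.3% ± 3.29. The most abundant Polycomb-like transcript was thus Phf1 in non-GC B cells and Mtf2 in GC B cells. Jarid2, which marks the other form of PRC2, was at 59.3, 72.3 and 84.3 CPM in GC B cells and at 189, 201, 173, 189 and 163 CPM in non-GC B cells. It fell by 1.29 on the log2 scale (SE 0.09, adjusted p = 7.19e-08), and the ranges did not overlap.

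**Figure D1:**
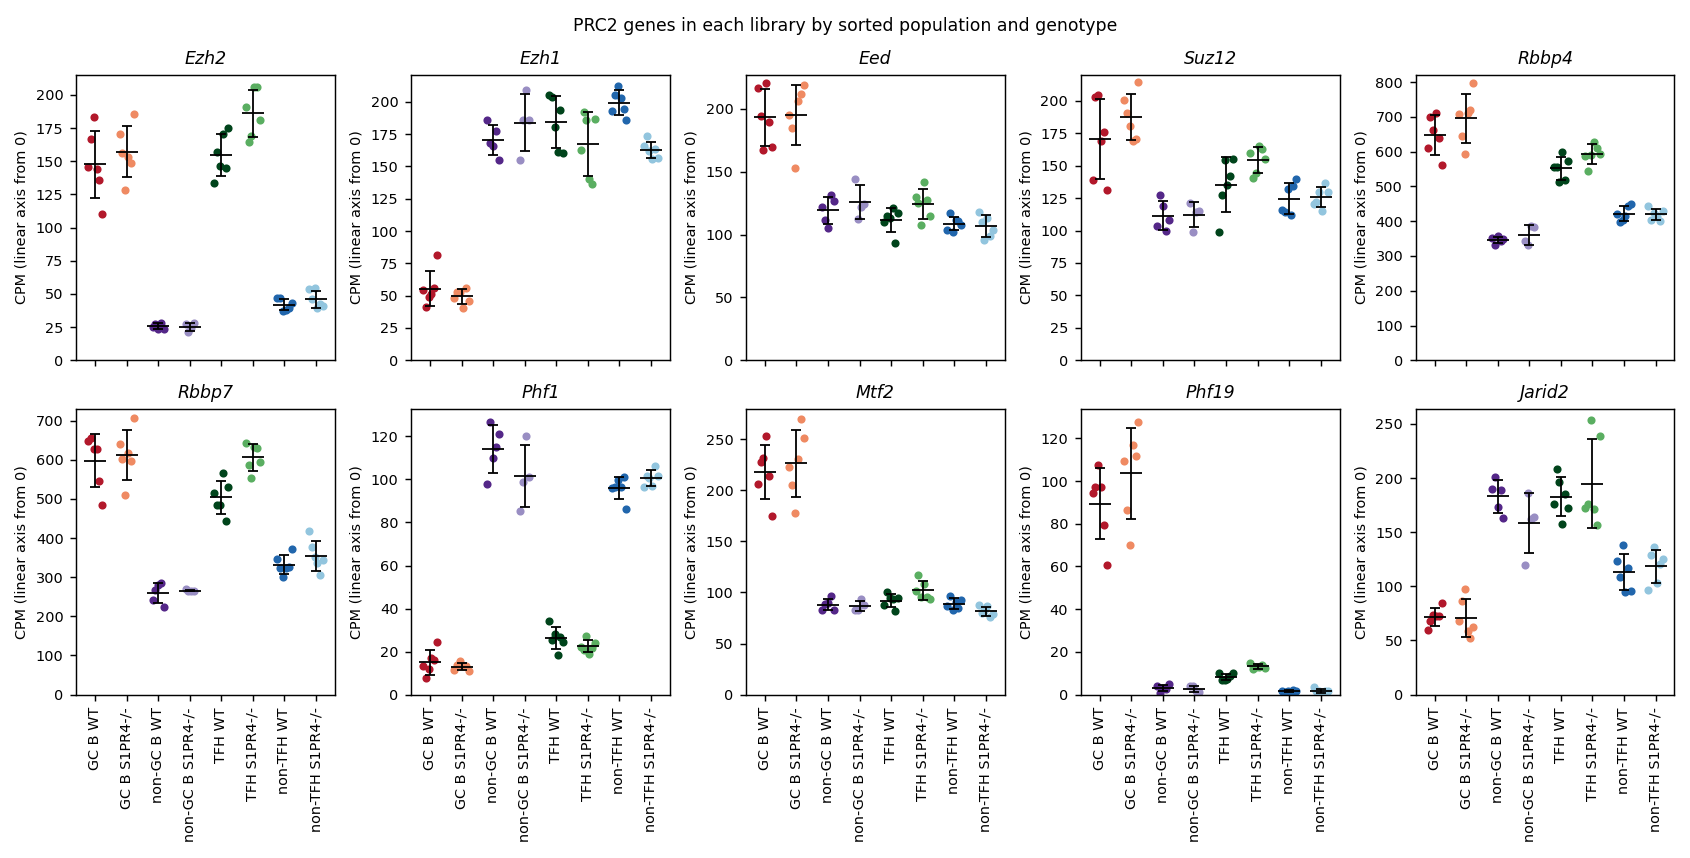
CPM of the 10 PRC2 genes in each of the 45 libraries (dots), by population and genotype, with the mean (wide bar) and SD (error bar) of each group on linear axes that start at 0. Ezh2 was high and Phf1 low in both GC B and TFH cells. Phf19 was highest in GC B cells, and Ezh1 and Jarid2 were low in GC B cells and not in TFH cells.

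The same comparison in S1PR4-/- B cells also called all 10 genes, 7 higher and 3 lower in GC B cells (64.6% of 13484 genes tested passed, 33.6% as higher and 31% as lower). None of the 10 had overlapping ranges (53.1% of all genes). Ezh2 was at 129, 155 and 185 CPM in GC B cells and at 27.1, 21.5, 24.5 and 28.3 CPM in the 4 non-GC B libraries, a log2 fold change of 2.69 (SE 0.12, adjusted p = 2.13e-08). Phf19 rose by 5.29 (SE 0.36, adjusted p = 2.97e-07), Mtf2 by 1.45 (SE 0.11), Rbbp7 by 1.26 (SE 0.09), Rbbp4 by 1.01 (SE 0.10), Suz12 by 0.80 (SE 0.09) and Eed by 0.69 (SE 0.11). Phf1 fell by 2.90 (SE 0.12, adjusted p = 1.01e-08), Ezh1 by 1.84 (SE 0.10) and Jarid2 by 1.10 (SE 0.18). Ezh2 made up 13.4% ± 2.39 of the catalytic pair in S1PR4-/- non-GC B cells (SD, n = 4) and 77.8% ± 3.55 in GC B cells (SD, n = 6).

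In WT CD4+ T cells, 6 of the 10 genes differed between TFH and non-TFH cells, 5 higher and 1 lower in TFH cells, where 68.7% of 13481 genes tested passed, 34.8% as higher and 33.9% as lower. Ranges did not overlap for those 6 (48.5% of all genes). The genes that passed were Ezh2, Phf19, Jarid2, Rbbp4, Rbbp7 and, lower, Phf1. Ezh1, Eed, Suz12 and Mtf2 did not pass, with log2 fold changes between -0.11 and 0.12.

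Ezh2 was at 133, 152 and 175 CPM (lowest, median, highest) in WT TFH cells and at 37.3, 41.2 and 47.3 CPM in non-TFH cells, with a wide gap between the groups. It rose by 1.88 on the log2 scale (SE 0.09, adjusted p = 1.91e-10), or 3.69-fold. Ezh1 was at 161, 187 and 205 CPM in TFH and 186, 199 and 213 CPM in non-TFH cells, and these ranges overlapped. Its log2 fold change was -0.11 (95% confidence interval -0.26 to 0.04, adjusted p = 0.176). Per length, Ezh2 was 19.0% ± 1.98 of the catalytic pair in non-TFH cells (SD, n = 6) and 48.3% ± 5.08 in TFH cells (SD, n = 6), with Ezh2 above Ezh1 in 2 of the 6 TFH libraries.

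Among the Polycomb-like genes, Phf19 was at 6.80, 7.97 and 10.2 CPM in WT TFH cells and at 0.556, 1.74 and 2.12 CPM in non-TFH cells, where the low level rested on 21 to 77 counts a library. It rose by 2.40 (SE 0.25, adjusted p = 9.00e-07). Phf1 was at 18.5, 26.2 and 34.1 CPM in TFH and 86.4, 96.4 and 101 CPM in non-TFH cells, with no overlap, and fell by 1.87 (SE 0.11, adjusted p = 2.39e-09). Mtf2 was level in CPM, at 92.1 ± 6.32 in TFH and 89.0 ± 5.34 in non-TFH cells (SD, n = 6 each), a log2 fold change of 0.05 (95% confidence interval -0.08 to 0.18, adjusted p = 0.491). Because Phf1 was lower, the share of Mtf2 in the trio was 63.9% ± 4.96 in TFH and 36% ± 2.36 in non-TFH cells.

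Jarid2 moved in T cells against its direction in B cells. It was at 158, 181 and 208 CPM in WT TFH cells and at 95.1, 112 and 138 CPM in non-TFH cells, and every TFH library exceeded every non-TFH library. It rose by 0.70 (SE 0.10, adjusted p = 1.33e-05). Rbbp7 rose by 0.60 (SE 0.07, adjusted p = 1.59e-06) and Rbbp4 by 0.39 (SE 0.05, adjusted p = 1.26e-05). Eed (log2 fold change 0.04, adjusted p = 0.604) and Suz12 (0.12, adjusted p = 0.292) did not pass. The result of Suz12 turned on 1 library, since without WT TFH replicate 1 it passed (0.19, adjusted p = 0.0366) and 7 of the 10 genes were called.

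In S1PR4-/- T cells, 9 of the 10 genes passed, 8 higher and 1 lower in TFH cells, and 70.7% of 13390 genes did so, 36.1% as higher and 34.6% as lower. Ranges did not overlap for 8 of the 10, Eed and Ezh1 being the exceptions (48.5% of all genes). The log2 fold changes were 2.03 for Ezh2 (SE 0.09, adjusted p = 3.59e-10), 2.88 for Phf19 (SE 0.26), 0.79 for Rbbp7 (SE 0.07), 0.73 for Jarid2 (SE 0.13), 0.51 for Rbbp4 (SE 0.04) and -2.15 for Phf1 (SE 0.08). Mtf2 at 0.33 (SE 0.06, adjusted p = 2.13e-04), Suz12 at 0.31 (SE 0.06, adjusted p = 2.16e-04) and Eed at 0.24 (SE 0.07, adjusted p = 0.00669) passed here and did not pass in WT cells. The difference itself, tested as an interaction of genotype and population, passed for none of the 10 genes (adjusted p at least 0.341). Ezh1 was at 0.05 (adjusted p = 0.591).

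**Figure D2:**
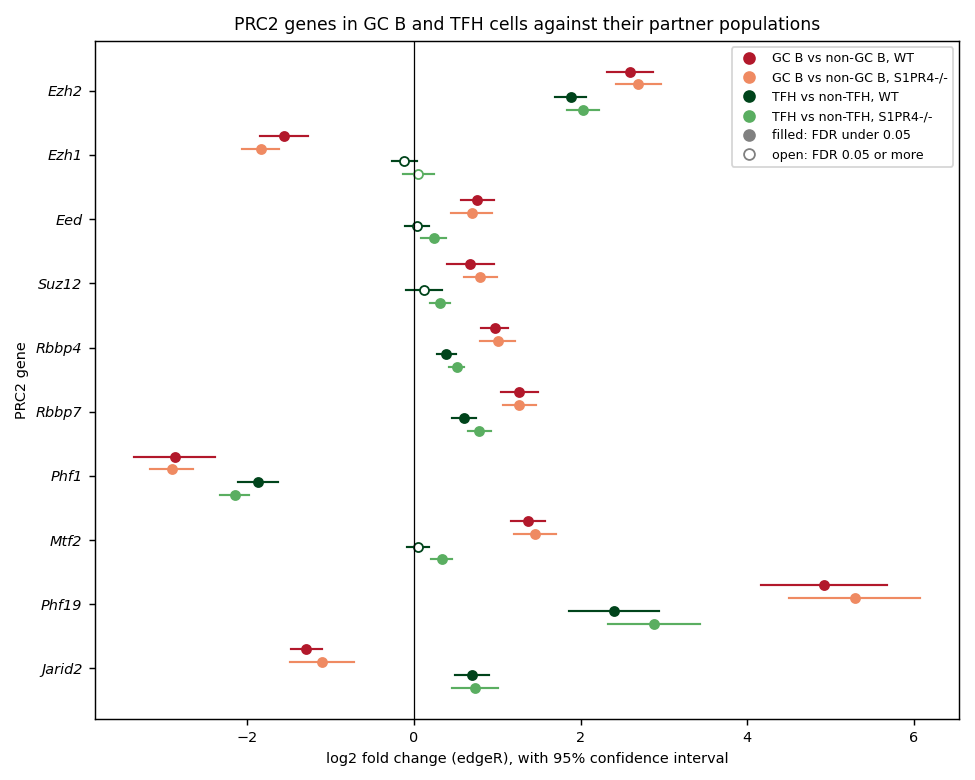
The log2 fold changes of the 10 PRC2 genes (dots, filled where FDR was under 0.05) with 95% confidence intervals (lines) in GC B against non-GC B cells and in TFH against non-TFH cells of each genotype. Jarid2 lay on opposite sides of 0 in B and T cells, and Ezh1 left 0 in B cells only, a difference that the contrast of shifts also called.

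The contrast of the 2 shifts in WT cells, GC B over non-GC B against TFH over non-TFH, was called for all 10 genes (41.7% of 15101 genes tested). On the log2 scale, Phf19 (2.45, SE 0.41), Mtf2 (1.26, SE 0.10), Eed (0.66, SE 0.11), Ezh2 (0.64, SE 0.14), Rbbp7 (0.60, SE 0.12), Rbbp4 (0.51, SE 0.08) and Suz12 (0.49, SE 0.16) shifted further up in B cells. Jarid2 differed by -2.05 (SE 0.13, adjusted p = 4.78e-11), Ezh1 by -1.51 (SE 0.16, adjusted p = 8.05e-08) and Phf1 by -1.05 (SE 0.25, adjusted p = 0.00183). Ezh2 reached a like level in both activated populations: GC B cells over TFH cells gave a log2 fold change of -0.06 for it (95% confidence interval -0.29 to 0.18, adjusted p = 0.656). It was the partner populations that differed, with Ezh2 lower in non-GC B than in non-TFH cells by a log2 fold change of -0.65 (SE 0.09, adjusted p = 2.59e-05).

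Directly compared, GC B and TFH cells differed in 9 of the 10 genes (67.8% of 13719 genes tested). Phf19 was 10.9-fold higher in GC B cells (log2 fold change 3.44, SE 0.16, adjusted p = 2.70e-10), and Mtf2 (1.25), Eed (0.80), Suz12 (0.34), Rbbp7 (0.26) and Rbbp4 (0.24) were also higher. Ezh1 (-1.72, SE 0.14, adjusted p = 9.78e-08), Jarid2 (-1.34, SE 0.09, adjusted p = 9.87e-09) and Phf1 (-0.80, SE 0.23, adjusted p = 0.00742) were lower in GC B cells. Between non-GC B and non-TFH cells 8 genes passed (57.3% of 13669), Phf19 (1.05), Jarid2 (0.76), Phf1 (0.31) and Eed (0.19) higher in B cells and Ezh2 (-0.65), Rbbp7 (-0.29), Rbbp4 (-0.22) and Ezh1 (-0.16) lower. Mtf2 (0.05) and Suz12 (-0.10) did not pass. In that comparison 5 genes passed when no low-count filter was set, so the small differences among the 8 depend on the setting.

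Ordered by their mean, neighbouring groups were compared in 1 fit over all 8 groups. For Ezh2 the order ran from TFH S1PR4-/- (186 ± 17.8 CPM, SD, n = 6) through GC B S1PR4-/- (157 ± 19.4), TFH WT (155 ± 16.1) and GC B WT (148 ± 25.2) to non-TFH S1PR4-/- (46.1 ± 6.37), non-TFH WT (42.0 ± 4.39), non-GC B WT (25.7 ± 2.18, n = 5) and non-GC B S1PR4-/- (25.3 ± 3.01, n = 4). Of its 7 neighbouring pairs 3 were told apart: the first pair (log2 difference 0.24, adjusted p = 0.0312), the step from GC B WT to non-TFH S1PR4-/- (1.68, adjusted p = 2.97e-18) and the step from non-TFH WT to non-GC B WT (0.71, adjusted p = 2.74e-07). For Ezh1, 6 groups from non-TFH WT (199 ± 9.58 CPM) to non-TFH S1PR4-/- (163 ± 6.43 CPM) held no neighbours that were told apart, and the single step lay above GC B WT (1.55, adjusted p = 9.93e-17).

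For Phf19 the order was GC B S1PR4-/- (104 ± 21.3 CPM), GC B WT (89.5 ± 16.8), TFH S1PR4-/- (13.2 ± 1.05), TFH WT (8.28 ± 1.53), non-GC B WT (3.09 ± 1.54), non-GC B S1PR4-/- (2.78 ± 1.40), non-TFH S1PR4-/- (1.81 ± 0.949) and non-TFH WT (1.56 ± 0.544). The steps below GC B WT (2.76, adjusted p = 1.54e-11) and below TFH WT (1.42, adjusted p = 5.50e-05) were told apart. Jarid2 had TFH S1PR4-/- (195 ± 40.7 CPM), non-GC B WT (183 ± 15.0) and TFH WT (183 ± 18.0) at the top and the 2 GC B groups (71.6 ± 8.12 in WT and 70.9 ± 17.6 in S1PR4-/-) at the bottom. In Suz12, 0 of the 7 neighbouring pairs were told apart, although the means ran from 188 ± 17.8 CPM in GC B S1PR4-/- to 111 ± 11.3 CPM in non-GC B WT.

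Levels between genes are compared only per length. Rbbp7 had the highest mean TPM of the 10 genes in all 8 groups and Rbbp4 the second highest. In WT non-GC B cells, Phf1 followed them (106 ± 10.1 TPM, SD, n = 5), while Ezh2 ranked 9 of 10 (12.5 ± 1.06 TPM) and Phf19 last (1.99 ± 1.01 TPM). In WT GC B cells Ezh2 ranked 6 (63.2 ± 12.2 TPM, SD, n = 6), Phf19 ranked 7 (50.8 ± 10.7 TPM), Ezh1 ranked 8 (21.3 ± 4.88 TPM) and Phf1 was last (12.3 ± 4.53 TPM). The core subunit Eed was at 144 ± 18.4 TPM there, above the sum of both catalytic transcripts. Of the sequence of Rbbp7 transcripts, 11.6% of the stretches of 31 bases also occur in another annotated gene, Gm6382, so its level is less certain than the others, where the shared part was 0% to 5.12%.

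**Figure D3:**
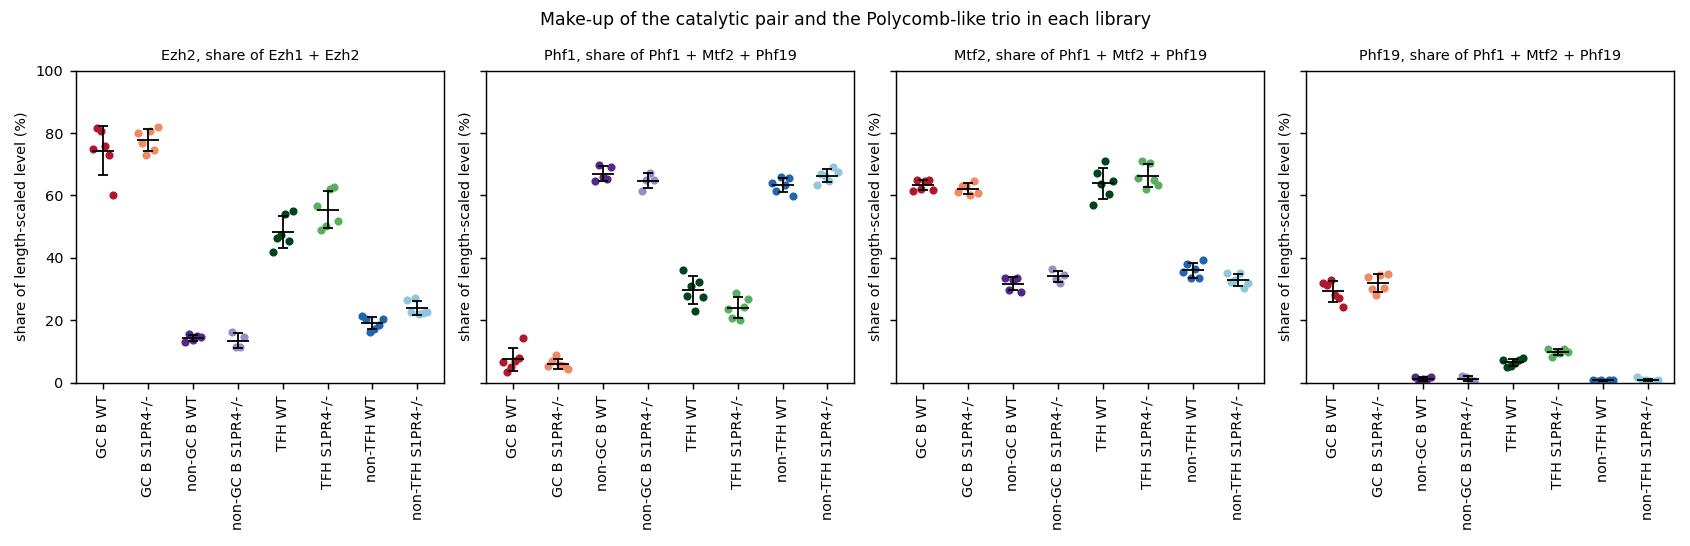
Shares of length-scaled levels (%) in each library (dots), with the mean (wide bar) and SD (error bar) of each group: Ezh2 within the sum of Ezh1 and Ezh2, and Phf1, Mtf2 and Phf19 within the sum of the 3. Ezh2 held 60.1% to 81.7% of the pair in WT GC B libraries and 13.1% to 15.5% in WT non-GC B libraries, and Phf1 led the trio in all 4 partner groups and Mtf2 in GC B and TFH cells.

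No PRC2 gene passed between S1PR4-/- and WT mice in B cells. In GC B cells 0 of 10 passed (0.0612% of 13070 genes did), 0 reached an unadjusted p under 0.05 (4.13% of all genes), and the log2 fold changes lay between -0.20 and 0.21. DESeq2 and limma-voom called 0 as well. Ezh2 was at 129, 155 and 185 CPM in S1PR4-/- against 110.3, 145 and 183 CPM in WT GC B cells, and the ranges overlapped almost fully. Its log2 fold change was 0.09 (95% confidence interval -0.17 to 0.34), that of Ezh1 -0.17 (-0.46 to 0.13) and that of Phf19 0.21 (-0.13 to 0.54). The S1PR4-/- GC B library with the highest plasma cell markers (17946 CPM summed), replicate 3, had the lowest Ezh2 (129 CPM) and Phf19 (70.1 CPM) and the highest Jarid2 (97.5 CPM) of its group; the part of plasma cells in this was not tested.

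In non-GC B cells, again 0 of 10 passed (0.0537% of 13038 genes), 0 reached an unadjusted p under 0.05 (4.55% of all genes), and DESeq2 and limma-voom called 0. The log2 fold changes lay between -0.21 and 0.11. That of Ezh2 was -0.01 (95% confidence interval -0.26 to 0.23), that of Ezh1 0.11 (-0.08 to 0.31) and that of Phf19, at a few CPM, -0.15 (-1.23 to 0.92). The interval of Phf19 is wide, so that a change of its size was not detectable at this level of counts. The interaction of genotype and population in B cells passed for 0 of 10 genes (0% of 14490), and 0 of them had an unadjusted p under 0.05 (4.58% of all genes), with 0 called by DESeq2 or limma-voom.

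In TFH cells 1 of 10 passed, Phf19, the gene with the largest population difference (1.41% of 13495 genes passed, 0.548% as higher). Phf19 was at 6.80, 7.97 and 10.2 CPM in WT and at 11.8, 12.9 and 14.7 CPM in S1PR4-/- TFH cells, so that the lowest S1PR4-/- library lay above the highest WT library (1.87% of all genes did not overlap). Its log2 fold change was 0.66 (95% confidence interval 0.40 to 0.92, adjusted p = 0.0268). The call was lost in 5 of the 12 fits that left out 1 library (adjusted p from 0.0124 to 0.0630 over the 12): without WT replicate 2, 3 or 5 or S1PR4-/- replicate 1 or 5. It was also lost with B cell markers as a covariate (log2 fold change 0.56, adjusted p = 0.179) and with all 8 groups in 1 fit (0.67, adjusted p = 0.239), while DESeq2 gave the smallest adjusted p of the alternatives (3.08e-05). With Xist as a covariate it was 0.74 (adjusted p = 0.0179). By Xist, a split made after seeing the data, the 5 WT TFH libraries over 1 CPM had 6.80 to 10.2 CPM of Phf19 and the 2 S1PR4-/- ones 12.8 and 14.0 CPM, while the 1 WT library under it had 6.91 CPM and the 4 S1PR4-/- ones 11.8 to 14.7 CPM.

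Ezh2 was at 133, 152 and 175 CPM in WT and 165, 186 and 206 CPM in S1PR4-/- TFH cells, with overlapping ranges, and gave 0.26 (95% confidence interval 0.10 to 0.43, unadjusted p = 0.00441 and adjusted p = 0.0908, edgeR's quasi-likelihood test over all genes). DESeq2 called it (adjusted p = 0.0254), as did the fit with Xist as a covariate (0.34, adjusted p = 0.0288); over all alternatives that leave no library out the adjusted p ran to 0.608. Rbbp7 (0.26, adjusted p = 0.0505) lay just outside the threshold, and it is X-linked. The 5 WT TFH libraries with Xist over 1 CPM had 443 to 566 CPM of Rbbp7, and the 2 S1PR4-/- ones 629 and 634 CPM. The 1 WT library under it had 484 CPM, against 553 to 642 CPM in the 4 S1PR4-/- ones. The part of sex in Rbbp7 was not tested. Ezh1 gave -0.14 (95% confidence interval -0.36 to 0.07). Over the 10 genes, 8 had a positive value and 2 a negative one, and 4 had an unadjusted p under 0.05, as 19.2% of all genes did. Ezh2 was 48.3% ± 5.08 of the catalytic pair in WT and 55.4% ± 6.00 in S1PR4-/- TFH cells (SD, n = 6 each), with overlapping ranges.

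Of the 17 proliferation genes, 3 passed as higher in S1PR4-/- TFH cells and 14 did not pass. Their summed level was 3919 to 5170 CPM in WT and 4915 to 6491 CPM in S1PR4-/- TFH cells, and their median log2 fold change was 0.34 against 0.00 over all genes. Those that passed were E2f8 (0.47), E2f7 (0.41) and Mcm6 (0.37), where 0.548% of all genes passed as higher. Mki67, the common marker of cycling cells, was at 0.13 (adjusted p = 0.457). The summed B cell markers were 162 to 478 CPM in WT and 160.5 to 293 CPM in S1PR4-/- TFH cells, with medians of 334 and 243 CPM. The 8 plasma cell markers summed to 285 to 662 CPM in WT and 241 to 289 CPM in S1PR4-/- TFH cells. The 8 myeloid markers summed to 18.6 to 79.2 CPM in WT cells and to 13.4 to 65.9 CPM in 5 of the S1PR4-/- libraries, with 442 CPM in replicate 6. The part of proliferation, plasma cells and myeloid cells in the difference of Phf19 was not tested.

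In non-TFH cells 1 of 10 passed, Ezh1 (0.235% of 13197 genes passed, 0.159% as lower). It was at 186, 199 and 213 CPM in WT and at 156, 163 and 173 CPM in S1PR4-/- non-TFH cells, and every S1PR4-/- library was below every WT library (1.17% of all genes did not overlap). It fell by 0.29 on the log2 scale (95% confidence interval -0.40 to -0.18, adjusted p = 0.0223), a change under 1.5-fold. The call was lost in 6 of the 12 fits without 1 library, WT replicate 2 or S1PR4-/- replicate 1, 3, 4, 5 or 6 (adjusted p from 0.0140 to 0.0821 over the 12), while the log2 fold change ran from -0.31 to -0.27 over those 12. It was also lost with the replicate block (adjusted p = 0.0580), with Xist as a covariate (-0.32, adjusted p = 0.0538), with B cell markers as a covariate (-0.34, adjusted p = 0.0953) and with all 8 groups in 1 fit (-0.29, adjusted p = 0.314), while DESeq2 gave the smallest adjusted p (1.41e-05). The 5 WT libraries with Xist over 1 CPM had 186 to 205 CPM of Ezh1 and the 2 S1PR4-/- ones 156 and 164 CPM, and the 1 WT library under it had 213 CPM against 157 to 173 CPM in the 4 S1PR4-/- ones. Ezh2 (0.14, 95% confidence interval -0.06 to 0.33) and Phf19 (0.21, -0.53 to 0.95) did not pass, and over the 10 genes 2 had an unadjusted p under 0.05 (11.3% of all genes).

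Ezh2 was 16.3% to 21.3% of the catalytic pair in the 6 WT non-TFH libraries and 22.1% to 27.1% in the 6 S1PR4-/- ones, which did not overlap. This share was not tested and has no counterpart over all genes. It contains the Ezh1 difference given above, whose call depended on single libraries, so it is not a separate result. The interaction of genotype and population in CD4+ T cells passed for 0 of 10 genes (0.0139% of 14401), with 2 at an unadjusted p under 0.05 (9.2% of all genes), and DESeq2 and limma-voom called 0. The interaction estimates were 0.45 for Phf19 (95% confidence interval -0.31 to 1.2), 0.15 for Ezh1 (-0.09 to 0.38) and 0.12 for Ezh2 (-0.14 to 0.39). A difference of Phf19 in TFH cells and not in non-TFH cells is therefore not shown to be a difference between the populations.

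**Figure D4:**
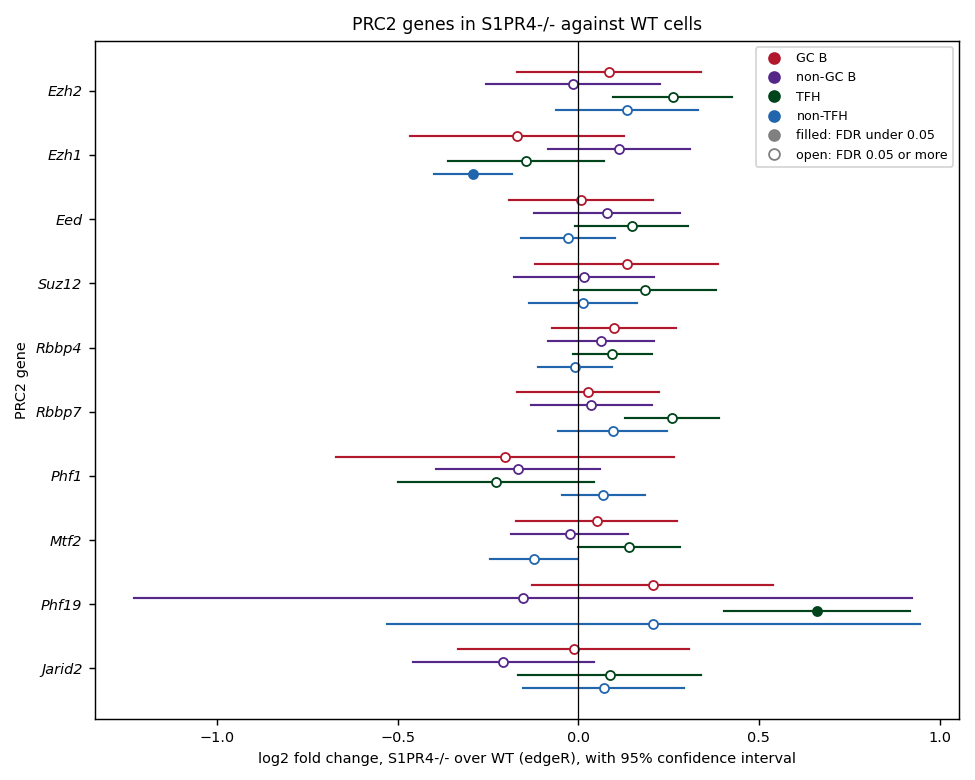
The log2 fold changes of the 10 PRC2 genes in S1PR4-/- over WT cells of each population (dots, filled where FDR was under 0.05), with 95% confidence intervals (lines). Phf19 in TFH cells (0.66) and Ezh1 in non-TFH cells (-0.29) are the filled dots.

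Over the means of the 8 groups, the genes most like Ezh2 were Prr11, Ckap2, Prc1, Top2a and Ccnb1 (Pearson r 0.998 to 0.999 among 10239 genes ranked). Top2a and Ccnb1 are on the list of proliferation genes used here. The gene Prc1 is not among the genes of the complex PRC1 listed further below. Those most like Ezh1 were Cd84, Sh2d3c, Pomk, Tm7sf3 and Gpbp1l1 (0.993 to 0.998), and those most like Phf19 included Wdr34, Usp44, Ruvbl1 and Lrrc59 (0.995 to 0.998). Among the members, Ezh2 ran closest to Rbbp7 (0.99) and Rbbp4 (0.96) and against Phf1 (-0.94), and Ezh1 ran against Mtf2 (-0.98) and Eed (-0.97). These 8 points share lineage, day and genotype, and the values describe them only.

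All 17 proliferation genes rose in WT GC B cells (median log2 fold change 3.18) and in WT TFH cells (2.35), with Mki67 at 8.22 (SE 0.63) and 4.28 (SE 0.35). The largest rises were those of E2f8 (9.03), Mki67 and E2f7 (7.44) in GC B cells and of Cdk1 (4.64), Ccna2 (4.62) and Ccnb1 (4.48) in TFH cells. Within a group of 6 libraries, Ezh2 followed the mean log2 CPM of these genes by r but not, after adjustment, by rho in WT GC B cells (Pearson's r = 0.96, exact permutation p = 0.00417, adjusted 0.0222, and Spearman's rho = 0.94, exact permutation p = 0.0167, adjusted 0.0667). It did so by both measures in S1PR4-/- GC B cells (r = 0.98, exact permutation p = 0.00139, adjusted 0.0167, and rho = 1, exact permutation p = 0.00278, adjusted 0.0333), and again by r only in S1PR4-/- TFH cells (r = 0.98, exact permutation p = 0.00556, adjusted 0.0222, and rho = 0.94, exact permutation p = 0.0167, adjusted 0.0667). Without the 2 libraries farthest from the median, r was 0.92, 0.996 and 0.97 in these 3 groups.

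In the other 3 groups of 6 the relation of Ezh2 did not pass adjustment over the 12 relations computed (adjusted exact permutation p for r from 0.0733 to 0.176), and it rested on 2 libraries in WT TFH cells, where r went from 0.76 to -0.49 without them, and in WT non-TFH cells, from 0.70 to -0.49. For S1PR4-/- non-TFH cells it went from 0.91 to 0.35. Phf19 followed the proliferation genes in WT GC B cells by r (0.94, exact permutation p = 0.0111, adjusted 0.0333) but not by rho (0.71, exact permutation p = 0.136, adjusted 0.272). In the other 5 groups the adjusted p for its r was 0.108 to 0.617.

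**Figure D5:**
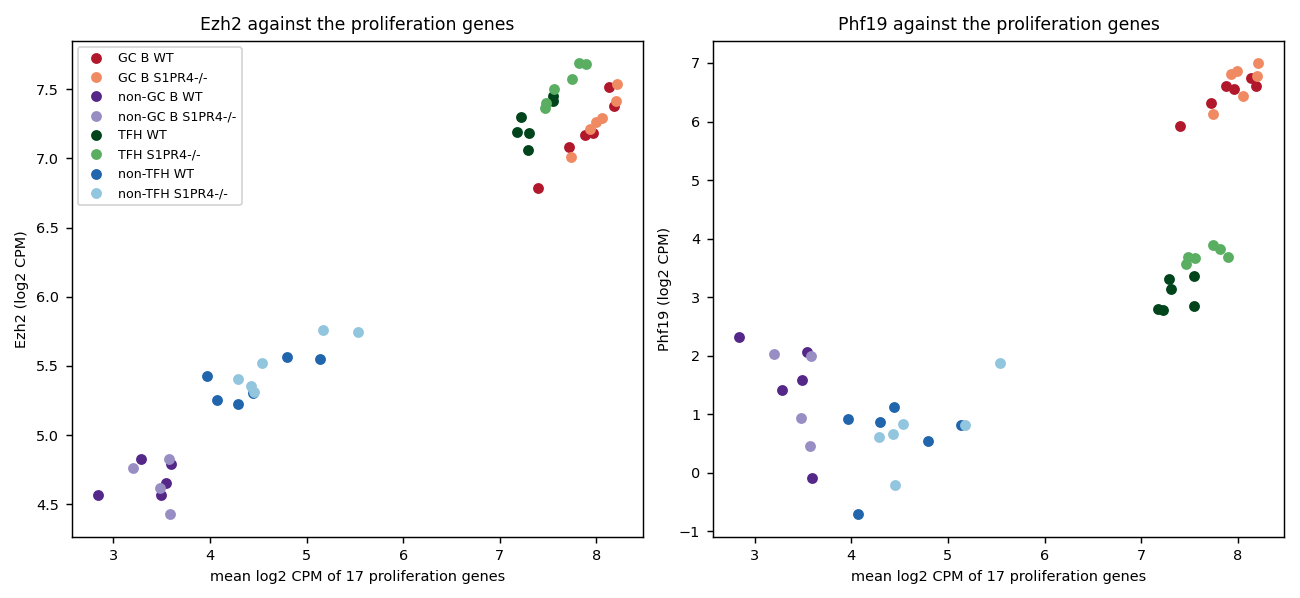
Ezh2 (left) and Phf19 (right), in log2 CPM, against the mean log2 CPM of 17 proliferation genes, with a dot for each library coloured by group. GC B and TFH libraries lie at the right, and those of WT mice are at a like height for Ezh2. In S1PR4-/- mice the Ezh2 ranges overlap, with the higher mean in TFH cells. For Phf19 the GC B libraries lie above the TFH libraries.

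Other genes of the Polycomb system were taken from lists. Of the 4 further PRC2 genes in GC B against non-GC B cells of WT mice, Epop, a Polycomb partner, rose (0.87, SE 0.19) and Lcor fell (-1.18, SE 0.25), with 2 not passing (34.3% of all genes rose and 32.9% fell). In TFH against non-TFH cells of WT mice Aebp2, the partner of JARID2, rose by 1.19 (SE 0.10, adjusted p = 4.56e-08), as Epop did by 0.34, and Lcor fell by 1.41 (34.8% and 33.9% of all genes). Aebp2 thus rose where Jarid2 rose. In S1PR4-/- mice 1 of the 4 rose and 1 fell in GC B cells (33.6% and 31% of all genes). In S1PR4-/- TFH cells 1 rose and 2 fell (36.1% and 34.6%). Of the 2 demethylases that remove the PRC2 mark, beside the same shares of all genes, Kdm6b fell in WT GC B cells (-1.32, SE 0.40, adjusted p = 0.0103) and Kdm6a was at -0.01 (adjusted p = 0.982). Neither passed in WT TFH cells (Kdm6a 0.14, Kdm6b -0.25). In S1PR4-/- mice Kdm6b did not pass in GC B cells (-0.87, adjusted p = 0.124) and fell in TFH cells (-0.45, adjusted p = 0.0139).

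Of the 24 genes of PRC1, the complex that reads the PRC2 mark and ubiquitylates histone H2A, 22 were tested in WT B cells, where 6 rose, 9 fell and 7 did not pass (34.3% and 32.9% of all genes rose and fell), with a median of -0.20. Cbx2 rose by 3.42 (SE 0.37), and Cbx7 fell by 2.23 (SE 0.10), both being chromobox readers, while Rnf2, a catalytic subunit, fell by 1.22 (SE 0.11) and Bmi1 by 1.02 (SE 0.13). In WT T cells 4 of 24 rose and 14 fell (34.8% and 33.9% of all genes), with a median of -0.33. Cbx7 fell by 1.60 (SE 0.10), Scmh1 fell by 1.49 (SE 0.14), Pcgf2 rose by 1.44 (SE 0.48), and Bmi1 did not pass (0.09, adjusted p = 0.465).

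Of 5 genes tested for the H2A deubiquitinase, 2 rose and 2 fell in WT GC B cells, where 34.3% and 32.9% of all genes did, and 2 rose and 3 fell in WT TFH cells, where 34.8% and 33.9% did. In S1PR4-/- mice 2 rose and 1 fell in GC B cells, and 2 rose and 3 fell in TFH cells. Asxl1 (1.11 and 0.82) and Foxk2 (0.98 and 0.68) rose in both, and Foxk1 (-0.51 and -0.47) fell in both. Of 8 genes of H3K36 methylation and other opponents of the mark, Nsd2 was the single one to rise, by 2.58 (SE 0.16) in GC B and 2.77 (SE 0.16) in TFH cells. It makes H3K36 dimethylation. Another 6 fell in GC B cells, led by Ash1l (-1.23) and Kmt2d (-0.53), and 4 fell in TFH cells, led by Ash1l (-0.998) and Nsd3 (-0.88), beside the same shares of all genes. In S1PR4-/- mice 1 rose and 3 fell in GC B cells (33.6% and 31% of all genes), where Kmt2d did not pass (-0.33, adjusted p = 0.0890), and 1 rose and 4 fell in TFH cells (36.1% and 34.6%).

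Of 10 genes known as targets of EZH2 in lymphocytes, 6 were tested in WT B cells, where 3 rose and 1 fell (34.3% and 32.9% of all genes). Prdm1, the plasma cell regulator, rose by 3.88 (SE 0.61), Tbx21 by 2.37 (SE 0.34) and Cdkn1a, an inhibitor of the cell cycle, by 1.24 (SE 0.25), while Cdkn1b, a related inhibitor, fell by 1.47 (SE 0.22). Prdm1 is also among the plasma cell markers, whose sum was 4043 to 8886 CPM in WT GC B and 513 to 861 CPM in WT non-GC B cells. In WT T cells 5 of 8 rose and 0 fell (34.8% and 33.9% of all genes), with Cdkn1a at 3.55 (SE 0.31), Irf4 at 2.26 (SE 0.22), Tbx21 at 1.08 (SE 0.39) and Prdm1 at 0.52 (SE 0.19). Cdkn2a was too low to be tested in these comparisons. No gene of these lists passed in S1PR4-/- against WT cells of any population, apart from the 3 proliferation genes in TFH cells; Nsd2 there was at 0.29 (adjusted p = 0.0960) and Kdm6a at -0.40 (adjusted p = 0.218). Kdm6a is X-linked, and in TFH cells it was at 115 to 146 CPM in the 5 WT libraries with Xist over 1 CPM and at 127 and 130 CPM in the 2 S1PR4-/- ones, against 86.7 CPM in the 1 WT library under it and 66.4 to 80.0 CPM in the 4 S1PR4-/- ones. Its ranges in these TFH libraries lay apart by Xist in both genotypes.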

How the data were processed

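Per the labels and methods, the authors used Cutadapt 2.10, STAR 2.5.3 (against mm10), Picard and RSEM 1.3.0, and deposited expected counts per gene. The table analysed covers the 45 libraries and is scaled for neither depth nor length, and a normalized matrix that the methods mention was not used here. Whether counting used strand is not given in the sources used here, and other annotated genes overlap exons of Ezh2, Eed, Suz12, Mtf2, Phf1, Rbbp4 and Rbbp7 on the opposite strand. The methods name GENCODE release M30, but the symbols fitted M21, which gave the lengths behind every TPM, share and rank.

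Counts were rounded, filtered (filterByExpr), normalized by TMM and tested with the quasi-likelihood test of edgeR 4.0.16 (R 4.3.3), with Benjamini-Hochberg adjustment over all genes. SEs were derived from the F statistic. DESeq2 1.42.0, which the authors' methods name, and limma-voom 3.58.1 were alternatives. The fits of most comparisons were also run on simulated data in which a small share of genes was changed, equally up and down. Most genes differed between the real populations, so the simulation does not cover that setting. All 10 genes were named in comparisons of populations, and Ezh2, Ezh1, Phf19 and any gene that passed in those of genotypes. Rbbp7 there was named after its value was seen. For lists, the 3 largest changes that passed and a few set genes were named. Members, lists and tests were chosen with earlier results of these data known. No library was left out. Among the genes that these rules name, 1 is not reported here.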

Additional observations from a re-analysis of the deposited data

Results flagged for a closer look

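In 3 of the 80 groups of libraries examined gene by gene, 1 library stood apart from the others of its group, and chance alone flags about 1 in 20. Ezh1 was at 81.5 CPM in WT GC B replicate 6, where the other 5 libraries ran from 41.5 to 55.6 CPM. Phf19 was at 3.62 CPM in S1PR4-/- non-TFH replicate 1, where the others ran from 0.810 to 1.72 CPM. Phf1 was at 86.4 CPM in WT non-TFH replicate 6, below the 96.0 to 101 CPM of the others.

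The shift from non-GC B to GC B cells differed from that from non-TFH to TFH cells in WT mice for all 10 genes. By the same test of the difference, 41.7% of 15101 genes passed. The log2 differences were 2.45 for Phf19, 1.26 for Mtf2, 0.66 for Eed, 0.64 for Ezh2, 0.60 for Rbbp7, 0.51 for Rbbp4 and 0.49 for Suz12, and -2.05 for Jarid2, -1.51 for Ezh1 and -1.05 for Phf1. Lineage and day of sorting cannot be told apart here.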

How the results depend on the processing

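Of 830 repeated values for single genes in the comparisons of populations, 821 kept their direction and their side of the threshold, as did 221 of 240 between lineages, 219 of 249 between genotypes and 57 of 57 for the interactions. With the plasma cell markers as a covariate, chosen after seeing the data, 5 members were called in WT GC B against non-GC B cells (6.96% of all genes). Suz12 (0.17), Rbbp7 (0.76), Rbbp4 (0.87), Ezh1 (-1.32) and Phf1 (-1.76) no longer passed there. In these WT cells the mean log2 CPM of the markers (6.47 to 7.94 against 2.77 to 4.54) nearly follows the population. The same covariate left all 10 members called in S1PR4-/- GC B against non-GC B cells (50.1% of 13484 genes). There the marker means also lay apart (5.33 to 8.82 against 3.36 to 3.98). In S1PR4-/- against WT TFH cells, DESeq2 and the Xist covariate called 3 members each (7.28% and 4.96% of all genes), the fit of all 8 groups and the B cell marker covariate 0 (1.43% and 0.0741%), and leaving out a library 0 to 2. In non-TFH cells the replicate block, the 8 groups, Xist and marker covariates called 0 (0.371%, 0.216%, 0.106% and 0.0834% of all genes), and leaving out a library 0 to 1. Between WT non-GC B and non-TFH cells, no low-count filter and the 8 groups called 5 members each (29.7% and 57.2% of all genes), and the replicate block 6 (53.2%). The causes were not tested.

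Values that changed direction did not pass in either fit. Total counts in place of TMM gave -0.0113 for Eed and -0.0012 for Mtf2 in WT TFH against non-TFH cells, -0.0237 for Ezh1 in S1PR4-/- TFH against non-TFH cells, and -0.0918 for Mtf2 between non-GC B and non-TFH cells (-0.0141 with 8 groups), where this scaling moved the median of all genes by -0.14. Between genotypes in non-GC B cells, Phf19 was 0.0577 with the replicate block and -0.39 to 0.0769 without 1 library, and Ezh2 -0.0745 to 0.0562 without 1 library. In non-TFH cells Phf19 was -0.16 with Xist, -0.0207 with the marker covariate and -0.11 to 0.36 without 1 library.

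Replicate numbers were not taken as pairs, since in no comparison did every same-numbered pair correlate above 0.1, a chosen cut. Every library correlated best with its own number in S1PR4-/- T cells (6 of 6 pairs) as did 4 of 6 in WT T cells and 4 of 5 in WT B cells. In both T cell populations the WT library with Xist under 1 CPM was replicate 3, and the S1PR4-/- ones over it replicates 4 and 5. In B cells WT replicate 5 was under it in GC B and over it in non-GC B cells, so that number did not stand for 1 mouse there. The main tests took all libraries as independent, and whether the other equal numbers share a mouse was not tested. With the replicate block, TFH against non-TFH cells called 6 members in WT (70.2% of all genes) and 9 in S1PR4-/- mice (70.8%). Their interaction called 0 (0.0694%). The block lowered the count of members called from 1 to 0 in S1PR4-/- against WT non-TFH cells (0.371% of all genes). Between WT non-GC B and non-TFH cells it lowered the count from 8 to 6 (53.2%). In the remaining comparisons the count did not change. Phf19 had as few as 21 counts a library in WT non-TFH cells and 27 in WT non-GC B cells, which limits its precision there.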
